A study of Rattus norvegicus with 12 samples.

Results

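The matrix metalloproteinases Mmp2, Mmp3, Mmp9, Mmp10, Mmp13 and Mmp14 and the tissue inhibitors of metalloproteinases Timp1, Timp2 and Timp3 were followed across 4 drug treatments of rat skin-derived precursors. These 9 genes were chosen by name, with earlier results of the same arrays known, and were found by their gene symbol among 18166 genes with a symbol on the array. Each had 1 feature on the array, so no choice between features was needed. All 9 had a mean signal over a low-signal limit of 5.83 on the log2 scale, which 13636 genes passed.

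Metalloproteinases are zinc enzymes that cut the proteins of the extracellular matrix. Most are secreted as inactive precursors, are activated by other proteases such as plasmin, and are held in check by TIMPs, which bind the active enzyme. In skin, collagenases and stromelysins are known to be made by dermal fibroblasts and keratinocytes at wound edges, and their genes are textbook targets of the AP-1 and ETS transcription factors, which act after ERK kinase signalling.

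Skin-derived precursors are dermal precursor cells that grow as floating spheres. Cells of secondary spheres from newborn Sprague-Dawley rats, of which the study had 3 independent isolates, were dissociated and treated for 24 h. The groups were 100 nM trimebutine maleate together with 100 nM trametinib, 100 nM trimebutine maleate alone, 100 nM alprostadil, and vehicle, with 3 arrays each and 12 in all. Every group was grown in basal medium with 40 ng/ml FGF2 and 20 ng/ml EGF, growth factors that activate ERK signalling. Trametinib is an inhibitor of MEK, the kinase upstream of ERK. Trimebutine is given for disorders of gut motility, and alprostadil is prostaglandin E1. No group with trametinib alone was analysed here, so an effect of trametinib and an effect of the 2 drugs together cannot be told apart.

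Values are log2 expression values from Affymetrix Rat Gene 2.0 ST arrays. Array medians lay between 6.409 and 6.505, and the correlation between arrays of the same group was 0.985 to 0.991. All 14 measured markers of skin-derived precursors and dermis, among them Vim, Nes, Pdgfra, Twist2 and Col1a1, had a mean above the low-signal limit. The means of Sox2 (6.66) and Twist1 (6.20) were close to it, and each had 1 array with trimebutine and trametinib under it. Of these 14 genes, 3 rose and 4 fell with trimebutine and trametinib against trimebutine, where 16.8% of all genes rose and 16.6% fell. Among them were Wnt5a (-1.45), Pdgfra (-0.79) and Twist2 (0.83). Markers of keratinocytes, endothelial cells, Schwann cells and melanocytes, and mast cells and neutrophils averaged between 5.05 and 6.30 on every array, near the limit. Within these lists the glial genes S100b (6.56 to 8.15), Sox10 (6.98 to 7.25) and Mbp (6.66 to 7.25) were above the limit on all 12 arrays. With trimebutine and trametinib against trimebutine S100b differed by 0.58 (adjusted p = 0.243, and 1.45e-05 in the model with a replicate block), and the melanocyte gene Dct rose by 0.31 (adjusted p = 0.013). Macrophage markers were not low: 11 of 12 were above the limit, and only Cd163 was under it. Their mean log2 level ran from 7.59 to 8.61 over the arrays of trimebutine with trametinib, from 7.74 to 9.05 with trimebutine, from 7.56 to 9.15 with alprostadil and from 7.84 to 9.03 with vehicle. Macrophages also make several metalloproteinases, and in bulk RNA fewer cells of a type and less RNA per cell cannot be told apart.

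The sequence before the transcription start is given for the genes on which the results turn. Mmp13, Mmp12, Mmp3, Mmp1 and Mmp10 lie in a run of metalloproteinase genes on chromosome 8 and had the lower levels with trametinib described below, Mmp8 is a neighbour of low signal, and Timp1 is an inhibitor on another chromosome. Sequences are RefSeq's for build GRCr8, 250 bases long and ending just before the start, written 5′ to 3′ on the gene's strand. Capitals mark matches to TGANTCA, the AP-1 motif, which reads the same on both strands.
Mmp13: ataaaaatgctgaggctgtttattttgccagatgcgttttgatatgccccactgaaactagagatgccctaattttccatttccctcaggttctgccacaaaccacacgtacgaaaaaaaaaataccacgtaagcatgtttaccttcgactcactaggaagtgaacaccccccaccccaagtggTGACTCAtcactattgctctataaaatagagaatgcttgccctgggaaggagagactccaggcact
Mmp12: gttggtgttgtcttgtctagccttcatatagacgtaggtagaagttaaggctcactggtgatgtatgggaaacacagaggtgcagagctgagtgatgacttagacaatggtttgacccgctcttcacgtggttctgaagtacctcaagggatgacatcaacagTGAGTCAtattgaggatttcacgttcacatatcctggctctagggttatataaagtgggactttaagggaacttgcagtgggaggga
Mmp3: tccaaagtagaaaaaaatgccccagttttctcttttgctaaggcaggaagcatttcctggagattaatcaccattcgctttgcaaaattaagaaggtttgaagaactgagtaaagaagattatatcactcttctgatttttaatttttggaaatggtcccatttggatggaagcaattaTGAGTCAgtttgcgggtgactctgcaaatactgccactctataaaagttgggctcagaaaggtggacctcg
Mmp1: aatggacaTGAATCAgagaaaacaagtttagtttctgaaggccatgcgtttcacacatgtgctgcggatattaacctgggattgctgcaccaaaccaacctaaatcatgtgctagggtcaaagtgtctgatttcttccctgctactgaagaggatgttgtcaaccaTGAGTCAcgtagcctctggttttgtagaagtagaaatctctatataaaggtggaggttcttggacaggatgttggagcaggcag
Mmp10: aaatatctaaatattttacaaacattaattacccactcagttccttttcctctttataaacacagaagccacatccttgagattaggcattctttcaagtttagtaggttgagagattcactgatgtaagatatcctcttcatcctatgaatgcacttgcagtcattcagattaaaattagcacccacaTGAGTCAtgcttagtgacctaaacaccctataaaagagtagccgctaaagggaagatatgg
Mmp8: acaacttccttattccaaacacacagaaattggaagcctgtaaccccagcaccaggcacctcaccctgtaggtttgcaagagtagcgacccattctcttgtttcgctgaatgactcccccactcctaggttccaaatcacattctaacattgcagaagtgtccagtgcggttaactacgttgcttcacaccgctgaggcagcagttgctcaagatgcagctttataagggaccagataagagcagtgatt
Timp1: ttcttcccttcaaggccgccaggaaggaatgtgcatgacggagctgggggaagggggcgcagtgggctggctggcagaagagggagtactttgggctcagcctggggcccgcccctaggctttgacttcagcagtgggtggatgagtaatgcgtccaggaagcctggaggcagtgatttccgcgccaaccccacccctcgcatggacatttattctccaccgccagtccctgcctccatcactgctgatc
The windows are chr8:12782579-12782828, chr8:12866402-12866651, chr8:12925031-12925280, chr8:12943203-12943452, chr8:12974457-12974706 and chr8:13008640-13008889 on the plus strand and chrX:3771123-3771372 on the minus strand. Of the 9 genes, 6 matched an entry of the promoter table, and Mmp2, Mmp9 and Mmp14 did not.

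Mmp13, the main collagenase of rodents, and the stromelysins Mmp3 and Mmp10, which cut proteoglycans, fibronectin and other metalloproteinase precursors, were far lower with trimebutine and trametinib than in any other group. Mmp13 had log2 levels of 5.60, 6.49 and 7.30 with trimebutine and trametinib, 12.25, 12.03 and 12.36 with trimebutine, 12.70, 12.53 and 12.63 with alprostadil, and 12.29, 12.11 and 12.28 with vehicle. The highest array with trametinib was thus under the lowest of the other 9. The mean difference from trimebutine was -5.75 (SE 0.30), a 53.9-fold lower level as measured, with -6.65, -5.54 and -5.06 in the 3 pairs of arrays with the same replicate number.

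Mmp3 had log2 levels of 6.51, 7.69 and 8.14 with trimebutine and trametinib, 12.92, 12.91 and 13.15 with trimebutine, 13.02, 13.01 and 13.13 with alprostadil, and 12.97, 12.95 and 13.11 with vehicle. The groups with and without trametinib did not overlap, and the 9 arrays without it lay close together. The difference from trimebutine was -5.55 (SE 0.30), 46.7-fold lower as measured, and the levels without trametinib lay as little as 0.59 under the brightest feature of their array. Mmp10 had log2 levels of 5.04, 5.39 and 5.42 with trimebutine and trametinib, 8.74, 8.87 and 9.47 with trimebutine, 8.89, 9.03 and 9.62 with alprostadil, and 8.99, 8.98 and 9.36 with vehicle. All 3 arrays with trametinib were under the low-signal limit of 5.83, as was 1 of the 3 for Mmp13. The limit is a filter and the values carry no detection call, so how far such levels lie above background is not known. The difference of Mmp10 from trimebutine was -3.74 (SE 0.22) as measured. The spread of Mmp13 and Mmp3 was larger with trimebutine and trametinib (SD 0.85 for each, n = 3) than with trimebutine (SD 0.17 and 0.13, n = 3), alprostadil (SD 0.09 and 0.07, n = 3) or vehicle (SD 0.10 and 0.09, n = 3). The SEs of their differences use a spread shared by the 4 groups and so understate the spread with trametinib. In limma their adjusted p was 1.41e-07 and 1.62e-07, and 7.03e-05 and 7.55e-05 in a fit of the 2 groups alone.

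**Figure D1:**
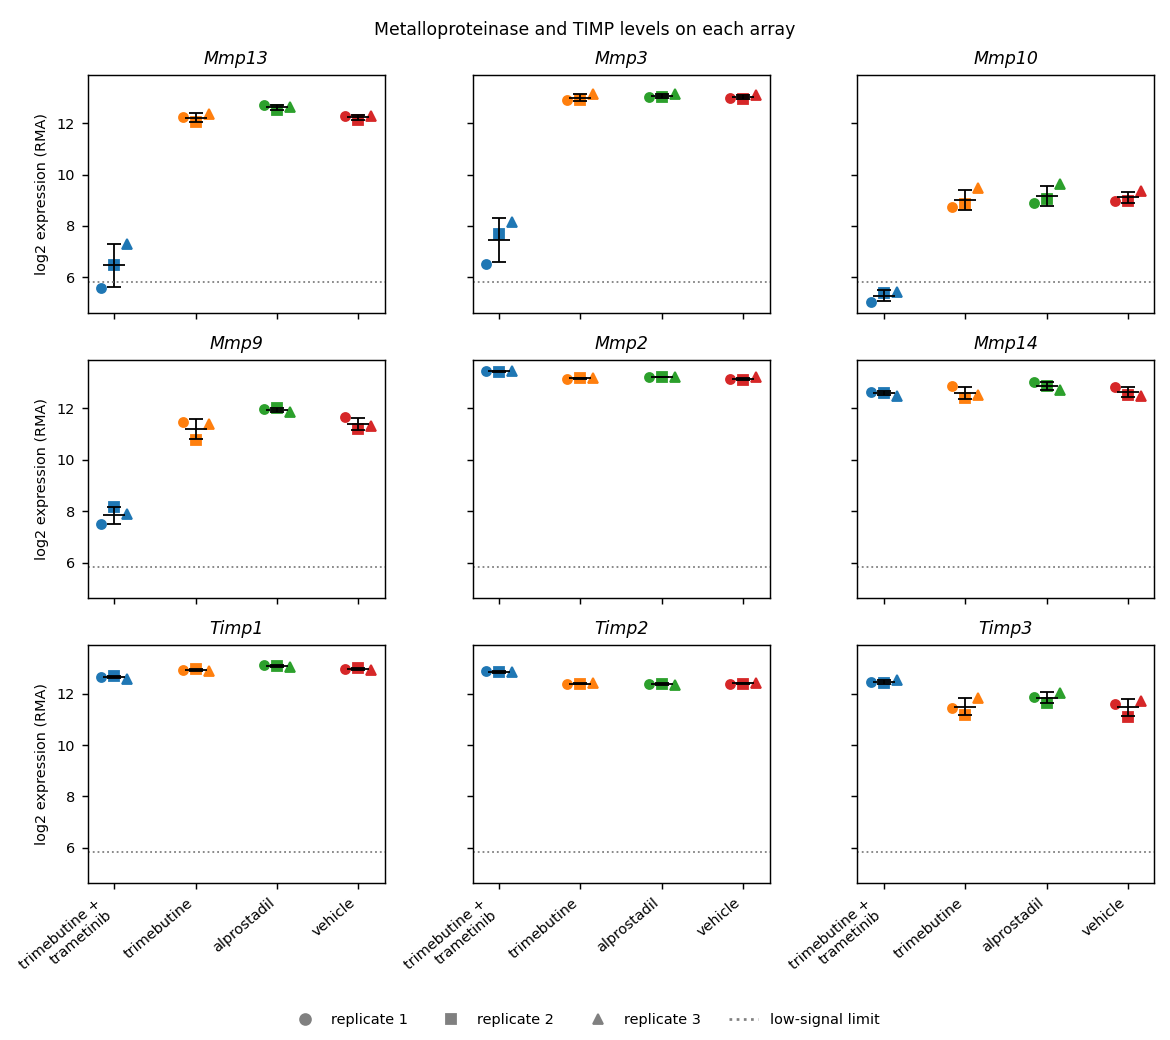
Log2 expression of the 9 genes on each of the 12 arrays, with a panel per gene, groups along the horizontal axis, the replicate number as the marker, and bars for the group mean and SD (n = 3). The arrays with trimebutine and trametinib stand far under all others for Mmp13, Mmp3, Mmp10 and Mmp9 and close to them for the other 5 genes; the dotted line is the low-signal limit of 5.83.

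The gelatinases cut denatured collagen and the type IV collagen of basement membranes, and the 2 of them differed in direction. Mmp9 had log2 levels of 7.49, 8.15 and 7.90 with trimebutine and trametinib, 11.49, 10.76 and 11.39 with trimebutine, 11.96, 12.01 and 11.87 with alprostadil, and 11.65, 11.21 and 11.33 with vehicle. No array with trametinib reached an array without it, and the difference from trimebutine was -3.36 (SE 0.20), a 10.3-fold lower level. Mmp9 is also a product of macrophages and neutrophils. Of 11 macrophage markers tested, 1 fell with trimebutine and trametinib against trimebutine, where 16.6% of all genes fell. It was the lysosomal gene Cd68 (-1.03, adjusted p = 5e-05). When the model had a replicate block 3 fell and 1 rose, where 2832 of 13636 genes fell and 2891 rose. Mmp9 differed by -3.99, -2.62 and -3.48 in the 3 pairs of arrays with the same replicate number. In those pairs the macrophage markers had a mean log2 level of 7.59, 8.38 and 8.61 with trimebutine and trametinib, against 7.74, 8.41 and 9.05 with trimebutine. Their part in the result was not tested.

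Mmp2 had log2 levels of 13.47, 13.42 and 13.45 with trimebutine and trametinib, 13.16, 13.17 and 13.19 with trimebutine, 13.24, 13.23 and 13.23 with alprostadil, and 13.15, 13.11 and 13.21 with vehicle. The 3 arrays with trametinib were the highest of the 12, by a small step of 0.27 (SE 0.05) over trimebutine, or 1.21-fold. These levels lie 0.29 to 0.65 under the brightest feature of their array, near the top of the scale. Mmp14, a membrane-bound enzyme that activates the Mmp2 precursor together with Timp2, had log2 levels of 12.66, 12.60 and 12.50 with trimebutine and trametinib, 12.86, 12.42 and 12.52 with trimebutine, 13.02, 12.88 and 12.72 with alprostadil, and 12.85, 12.52 and 12.50 with vehicle. Arrays with and without trametinib overlapped, and the difference from trimebutine was -0.02 (SE 0.13, 95% interval -0.30 to 0.26).

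The 3 inhibitors did not share a direction. Timp3, which binds to the extracellular matrix, had log2 levels of 12.44, 12.40 and 12.54 with trimebutine and trametinib, 11.46, 11.17 and 11.84 with trimebutine, 11.87, 11.63 and 12.03 with alprostadil, and 11.59, 11.10 and 11.72 with vehicle. It was higher with trametinib on every array, by 0.97 (SE 0.18) over trimebutine, or 1.96-fold. Timp2 had log2 levels of 12.88, 12.83 and 12.83 with trimebutine and trametinib, against 12.39, 12.38 and 12.40 with trimebutine, 12.38, 12.39 and 12.34 with alprostadil, and 12.38, 12.40 and 12.42 with vehicle. It too was higher without overlap, by 0.46 (SE 0.05), or 1.38-fold, and the other 9 arrays lay within a narrow band.

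Timp1, a secreted inhibitor that growth factors and cytokines are known to induce, had log2 levels of 12.65, 12.69 and 12.59 with trimebutine and trametinib, 12.93, 12.97 and 12.89 with trimebutine, 13.10, 13.07 and 13.02 with alprostadil, and 12.97, 12.99 and 12.93 with vehicle. It was lower with trametinib on every array, by a difference of -0.29 (SE 0.05), or 1.22-fold. This is the reverse of Timp2 and Timp3 and of Mmp2, and a small step beside those of the collagenase and the stromelysins.

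Differences from vehicle were close to those from trimebutine, as both use the same arrays with trametinib. They were -5.77 for Mmp13, -5.57 for Mmp3, -3.83 for Mmp10, -3.55 for Mmp9, 0.29 for Mmp2, -0.04 for Mmp14, -0.32 for Timp1, 0.45 for Timp2 and 0.99 for Timp3. Against trimebutine, 3 of the 9 genes were higher and 5 lower at an adjusted p under 0.05 in limma, the threshold used for every call here, where 33.4% of the 13636 genes passed, 16.8% of them higher and 16.6% lower. Against vehicle the split was the same, where 35% of all genes passed, 17.5% in each direction. The groups did not overlap against trimebutine for 8 of the 9 genes, where they did not for 45.8% of all genes. The 9 genes were chosen with these values known, so the counts are a description. Ordered from the lowest difference from trimebutine upwards among all 13636 genes, Mmp13 ranked 1, Mmp3 ranked 2, Mmp10 ranked 3 and Mmp9 ranked 5. This order takes in levels under the low-signal limit, of Mmp10 and 1 array of Mmp13, and levels of Mmp3 near the top of the scale. The median difference of the 9 genes from trimebutine was -0.29, and that of all genes 0.03.

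**Figure D2:**
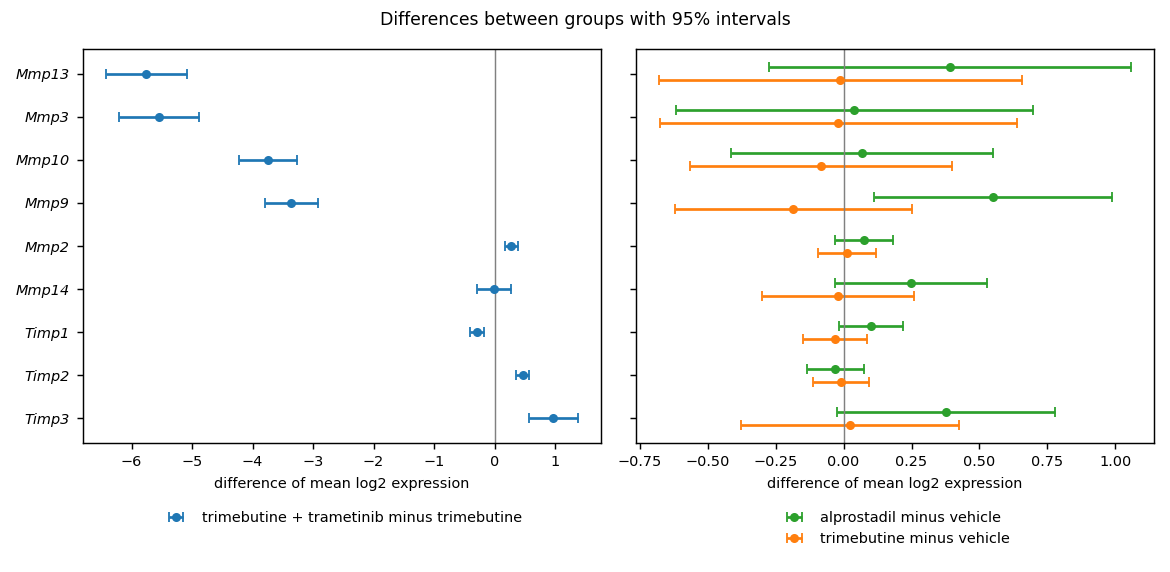
Differences of mean log2 expression with 95% intervals for the 9 genes, on the left for trimebutine with trametinib minus trimebutine and on the right, on a finer scale, for alprostadil minus vehicle and trimebutine minus vehicle. Mmp13, Mmp3, Mmp10 and Mmp9 lie between -5.75 and -3.36 on the left. On the right the interval of Mmp9 with alprostadil, from 0.11 to 0.99, is the only interval that leaves out 0. All intervals come from the model without the replicate block, with a spread shared by the 4 groups.

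The values with alprostadil against vehicle are likewise read as a description, since the genes were chosen with earlier results of all groups known. None of the 9 passed, where 0.389% of all genes did, and the lowest adjusted p was 0.542, for Mmp9. Mmp9 was 0.55 higher with alprostadil (SE 0.20, 1.46-fold, 95% interval 0.11 to 0.99), the 77th highest difference of 13636, and its 3 alprostadil arrays were all above the 3 vehicle arrays. Mmp13 was 0.39 higher (SE 0.30, adjusted p = 0.865), Timp3 0.38 higher (SE 0.18, adjusted p = 0.748) and Mmp14 0.25 higher (SE 0.13, adjusted p = 0.778). The SE of Mmp13 rests on the spread shared by all 4 groups. In a limma fit of the 2 groups alone its adjusted p was 0.24. The value of Timp3 was 0.19 without vehicle replicate 2 and 0.50 without vehicle replicate 3.

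The other 5 genes differed by -0.03 to 0.10 with alprostadil. The arrays did not overlap for Mmp2, Mmp9, Mmp13 and Timp1, which were higher with alprostadil, so 4 of 9 genes stood apart in that direction where 5.41% of all genes did. In all 3 pairs of arrays with the same replicate number 7 of 9 genes were higher, where 16.4% of all genes were, and Timp2 was lower, where 19.8% were. The median of the 9 was 0.10, and that of all genes -0.01. In the model with the replicate block 1.88% of all genes passed but still none of the 9, and the lowest adjusted p was 0.0873, for Timp3.

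Trimebutine alone left the 9 genes within -0.19 (Mmp9, SE 0.20) and 0.02 (Timp3, SE 0.18) of vehicle. None passed in limma (adjusted p = 1 for each), where 0 of 13636 genes did, or 0%, while 143 genes had an unadjusted p under 0.05. With the block 0 genes passed too, and 252 had such a p. The groups overlapped for all 9 genes, where 4.23% of all genes stood apart. The 95% interval of Mmp13 ran from -0.68 to 0.65 and that of Timp2 from -0.11 to 0.09. These intervals use a spread shared by all 4 groups. For Mmp13 the SD was 0.85 with trimebutine and trametinib, against 0.17 with trimebutine and 0.10 with vehicle (n = 3 each). The interval of Mmp13 thus takes in the spread of arrays outside this comparison.

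Of 18 further metalloproteinase and TIMP genes, 15 were on the array and 11 were tested. Mmp1b, Mmp24 and Mmp25 had no feature with their symbol, and Mmp7, Mmp8, Mmp27 and Timp4 were under the low-signal limit. With trimebutine and trametinib against trimebutine 4 of the 11 fell, 2 rose and 5 did not pass, where 16.6% of all genes fell and 16.8% rose, so the number that rose is close to that over all genes. Mmp1, whose human counterpart is the interstitial collagenase, fell by 2.71 (SE 0.22, adjusted p = 3.18e-06), with log2 levels of 4.07, 4.85 and 4.80 against 7.31, 6.94 and 7.61 with trimebutine. Mmp12, the macrophage elastase, fell by 2.66 (SE 0.39, adjusted p = 0.000261), with levels of 6.17, 6.90 and 7.11 against 8.81, 9.28 and 10.07 with trimebutine. Neither gene's groups overlapped, and the arrays with trametinib were under the low-signal limit for Mmp1 and above it for Mmp12.

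Smaller falls were those of the membrane-type enzyme Mmp15 (-0.45, adjusted p = 0.0202) and of Mmp19 (-0.26, adjusted p = 0.019), and the rises were those of Mmp23 (0.46, adjusted p = 0.0021) and Mmp28 (0.44, adjusted p = 0.000232), known as epilysin. Mmp11, or stromelysin 3, did not pass without the replicate block (1.33, SE 0.50, adjusted p = 0.0616), and passed with it (adjusted p = 7.56e-05). Its log2 levels were 10.87, 11.17 and 11.53 with trimebutine and trametinib, against 9.02, 9.88 and 10.69 with trimebutine. They did not overlap, and its difference had the opposite sign to those of the stromelysins Mmp3 and Mmp10. With the block Mmp17 also passed (0.26, adjusted p = 0.0134, beside 0.0579 without it). In that model 4 of the 11 thus rose, where 2891 of 13636 genes did. The median of the 11 was 0.13, beside 0.03 for all genes. None of the 11 passed with alprostadil or with trimebutine against vehicle.

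Of the 4 genes with the largest differences, 3 lie in a run of metalloproteinase genes and Mmp9 does not. In the GRCr8 annotation 10 metalloproteinase genes follow each other on chromosome 8 with no other protein-coding gene between them, in the order Mmp13, Mmp12, Mmp1b, Mmp3, Mmp1, Mmp10, Mmp8, Mmp27, Mmp20 and Mmp7. Of these 9 had a feature and 6 were tested. The 5 tested genes from Mmp13 to Mmp10 were all lower, and Mmp20, the enamel enzyme enamelysin, was not (0.02, adjusted p = 0.882). The mean log2 level of Mmp20 over the 12 arrays was 6.21, near the low-signal limit of 5.83, which left little room for a fall. Mmp8, Mmp27 and Mmp7 were under the limit, at mean log2 levels of 5.54, 5.38 and 5.63 over the 12 arrays. Mmp9, Mmp2, Mmp14 and the TIMP genes lie outside the run. These genes are paralogs of each other, and how much a probe of 1 gene also binds RNA of another was not tested.

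**Figure D3:**
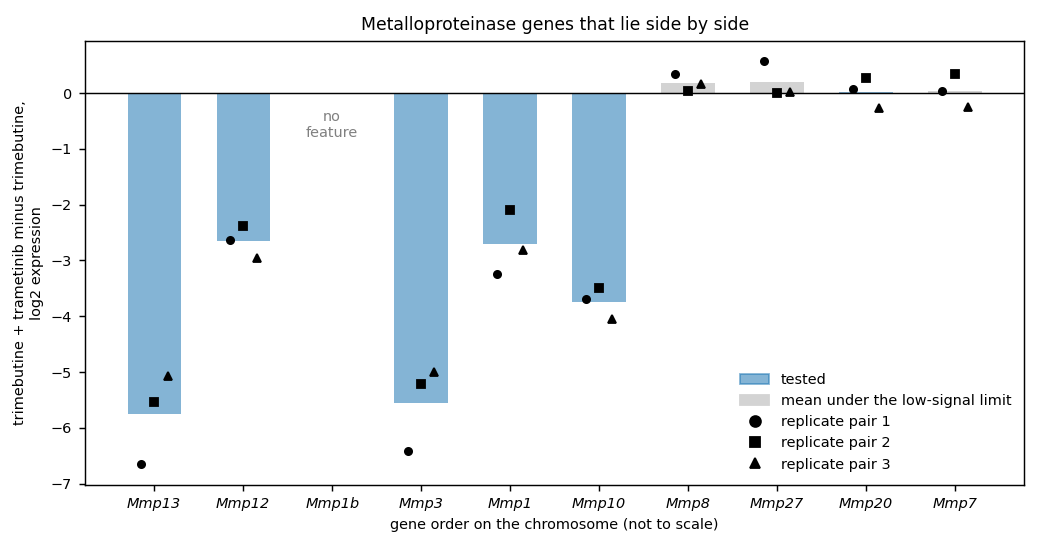
Difference of log2 expression, trimebutine with trametinib minus trimebutine, for the 10 metalloproteinase genes that lie side by side on chromosome 8, in gene order along the horizontal axis; bars are differences of group means and points are the 3 pairs of arrays with the same replicate number. Mmp13, Mmp12, Mmp3, Mmp1 and Mmp10 lie between -5.75 and -2.66, and the 4 measured genes from Mmp8 to Mmp7 between 0.02 and 0.20.

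The AP-1 motif TGANTCA was present within 300 bases, 250 before the start and 50 after it, in 7.33% of the 33469 promoters of the table. Of the 21 metalloproteinase and TIMP genes with an entry, 7 held it, and all 7 belong to the run on chromosome 8. In the sequences printed above the motif begins 66 bases before the start in Mmp13, as TGACTCA, and 87, 71, 84 and 61 bases before it in Mmp12, Mmp3, Mmp1 and Mmp10, as TGAGTCA. Mmp1 holds a second match, TGAATCA, 242 bases before the start.

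The other matches were those of Mmp7, 80 bases before the start, and Mmp20, 96 bases before it. Of the 7 genes with the motif 5 were lower with trimebutine and trametinib, Mmp20 did not pass and Mmp7 was not tested. Of the 14 without it, Timp1 and Mmp15 were lower, Timp2, Timp3, Mmp23 and Mmp28 were higher, Mmp11 and Mmp21 did not pass, and 6 were not tested. The mean log2 levels of Mmp20 (6.21) and Mmp21 (5.99) were near the low-signal limit, which left little room for a fall. The core ETS letters GGAA, or TTCC on the other strand, are in 95.8% of all promoters. No AP-1 match overlapped them. A match is a run of letters and not a measured binding site, and its absence covers only TGANTCA in these 300 bases. Other spellings, such as the tgagtaa in the Timp1 sequence above, were not searched, so a gene without a match may still hold an AP-1 site.

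Genes that activate or restrain metalloproteinases moved in both directions with trimebutine and trametinib. Of 20 listed, 16 were on the array and 15 were tested. Against trimebutine 5 fell, 3 rose and 7 did not pass, where 16.6% of all genes fell and 16.8% rose. With the block 6 fell and 4 rose, where 2832 of 13636 genes fell and 2891 rose. The urokinase gene Plau, whose product makes plasmin, fell by 2.24 (SE 0.25, adjusted p = 3.79e-05), and its receptor gene Plaur fell by 1.03 (SE 0.10, adjusted p = 1.65e-05). The falls also took in inhibitors: Tfpi2, a Kunitz protease inhibitor, fell by 2.12 (SE 0.16, adjusted p = 1.59e-06), and A2m, which traps proteases, fell by 1.29 (SE 0.10, adjusted p = 1.86e-06). The tight junction gene Cldn1 fell by 1.74 (SE 0.20, adjusted p = 5.29e-05).

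The rises in that list were those of the membrane-anchored inhibitor Reck (0.31, adjusted p = 0.039), the tissue plasminogen activator Plat (0.47, adjusted p = 0.00216) and the thrombospondin Thbs2 (0.50, adjusted p = 6.2e-05), which helps clear Mmp2. Furin, which cuts the precursor of Mmp14, did not pass (0.01, adjusted p = 0.967). The median of the 15 was 0.03, equal to that of all genes to 2 decimals. With alprostadil against vehicle 1 of the 15 passed, where 0.389% of all genes did. It was Tfpi2, which rose by 1.26 (SE 0.16, adjusted p = 0.00372). With the block Plat (0.45, adjusted p = 0.00397, beside 0.0867 without it) and Serpine2 (0.43, adjusted p = 0.0258, beside 0.693) passed too, where 1.88% of all genes passed. None passed with trimebutine against vehicle.

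Transcription factors and cytokines known to regulate metalloproteinase genes were measured on the same arrays. Of 21 listed 20 were tested, and with trimebutine and trametinib against trimebutine 8 fell, 4 rose and 8 did not pass. Of all genes 16.6% fell and 16.8% rose, so the number that rose is close to that over all genes. Among AP-1 genes Fosl1 fell by 1.71 (SE 0.10, adjusted p = 2.18e-07) and Jun fell by 0.34 (SE 0.06, adjusted p = 0.00124), while Jund rose by 1.51 (SE 0.12, adjusted p = 2.49e-06) and Fos rose by 0.69 (SE 0.11, adjusted p = 0.000707). Fosb (-0.05) and Junb (0.16) did not pass. AP-1 genes therefore had no common direction.

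Among ETS genes Etv1 fell by 1.26 (adjusted p = 4.49e-05), Etv4 fell by 0.71 (adjusted p = 0.000224) and Etv5 fell by 0.37 (adjusted p = 0.00621), whereas Ets2 rose by 0.86 (adjusted p = 4.12e-06). Runx2, a factor known to act on Mmp13, fell by 0.33 (adjusted p = 0.00341), Nfkb1 fell by 0.28 (adjusted p = 0.00912) and Rela rose by 0.22 (adjusted p = 0.00857). Of the cytokine genes Tnf fell by 0.54 (adjusted p = 0.00176), and Il1a, Il1b, Osm and Tgfb1 did not pass. The median of the 20 was -0.16, beside 0.03 for all genes. With alprostadil against vehicle 1 of the 20 passed, Tnf, which fell (-0.55, adjusted p = 0.0496), where 0.389% of all genes passed. With the block, where 1.88% of all genes passed, 3 rose: Junb (0.41, adjusted p = 0.0234, beside 0.172 without it), Ets2 (0.33, adjusted p = 0.0136, beside 0.104) and Runx2 (0.25, adjusted p = 0.0463, beside 0.262).

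Genes of matrix proteins that these enzymes cut were also measured. Of 18 listed 15 were tested, and with trimebutine and trametinib against trimebutine 9 rose, 1 fell and 5 did not pass, where 16.8% of all genes rose and 16.6% fell. The fibrillin gene Fbn1 rose by 1.21 (SE 0.06, adjusted p = 7.31e-08) and the type III collagen gene Col3a1 by 0.97 (SE 0.07, adjusted p = 8.16e-07), with 3 of 3 arrays above all trimebutine arrays for each. The type I collagen genes Col1a1 (0.56, adjusted p = 1.34e-05) and Col1a2 (0.59, adjusted p = 4.88e-06) rose, as did Col4a1 (0.76, adjusted p = 2.31e-05) of basement membranes and the elastin gene Eln (0.81, adjusted p = 0.0108). The osteopontin gene Spp1 fell by 1.95 (SE 0.22, adjusted p = 4.14e-05). Fn1 (0.05), Vcan (0.10), Dcn (0.03), Acan (-0.03) and Nid1 (0.10) did not pass. The mean log2 levels of Fn1 (13.33) and Dcn (13.42) lay near the brightest features of the arrays, at 13.65 to 13.80, and that of Acan (6.15) near the low-signal limit. Col1a1 (13.44) and Col3a1 (13.35) with trimebutine and trametinib were near the top of the scale too. The median of the 15 was 0.41, beside 0.03 for all genes. None passed with alprostadil or trimebutine against vehicle.

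Levels also differed between replicate numbers, which the labels give as biological replicates. In a moderated F test of the replicate number in limma's model with a block, added after the data were seen, 1961 genes passed, or 14.4% of all tested. Of the 9 genes Mmp10 (adjusted p = 0.00468), Timp3 (adjusted p = 0.0113) and Mmp14 (adjusted p = 0.0227) passed. Mmp10 was 0.55 higher in replicate 3 than in replicate 1 on average, and its replicate 3 array was the highest in all 4 groups. Timp3 was highest in replicate 3 and lowest in replicate 2 in all 4 groups, and Mmp14 was 0.29 lower in replicate 3 than in replicate 1.

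Mmp3 and Mmp13 did not pass this test (adjusted p = 0.247 and 0.396), but their arrays with trimebutine and trametinib were spread. Replicate 3 was above replicate 1 there by 1.64 for Mmp3 and 1.70 for Mmp13, while in the other 3 groups it differed by 0.11 to 0.23 for Mmp3 and by -0.08 to 0.11 for Mmp13. The cause of this spread was not tested. Among the further family genes Mmp12 (1.08 between replicates 3 and 1, adjusted p = 9.31e-05), Mmp11 (1.38, adjusted p = 0.000311) and the membrane-type enzyme Mmp16 (1.06, adjusted p = 1.63e-05) passed. Each was highest in replicate 3 and lowest in replicate 1 in all 4 groups.

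Macrophage markers and some genes of the other cell lists also differed between replicate numbers. Of 11 macrophage markers tested 9 passed, all higher in replicate 3 than in replicate 1, with a median difference of 1.58 over the 11. The lysozyme gene Lyz2 had log2 levels of 9.89, 11.94 and 12.44 with trimebutine and trametinib, 9.58, 12.12 and 12.83 with trimebutine, 9.60, 11.88 and 12.91 with alprostadil, and 9.80, 11.60 and 12.81 with vehicle, in replicates 1, 2 and 3. The glial gene S100b (1.01 between replicates 3 and 1, adjusted p = 3.93e-06) and the precursor gene Sox2 (1.29, adjusted p = 0.00211) were also highest in replicate 3 and lowest in replicate 1 in all 4 groups. Of 5 Schwann cell and melanocyte markers tested S100b alone passed, and of 3 mast cell and neutrophil markers 2 did. No keratinocyte or endothelial marker passed. Of the 14 precursor and dermal markers 4 passed, where 14.4% of all genes did. Of these 4, 3 were higher in replicate 3 than in replicate 1 and Nes was lower (-0.25, adjusted p = 0.0481). The part of any of these cell types in the levels of Mmp10, Mmp11, Mmp12 and Mmp16 was not tested.

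**Figure D4:**
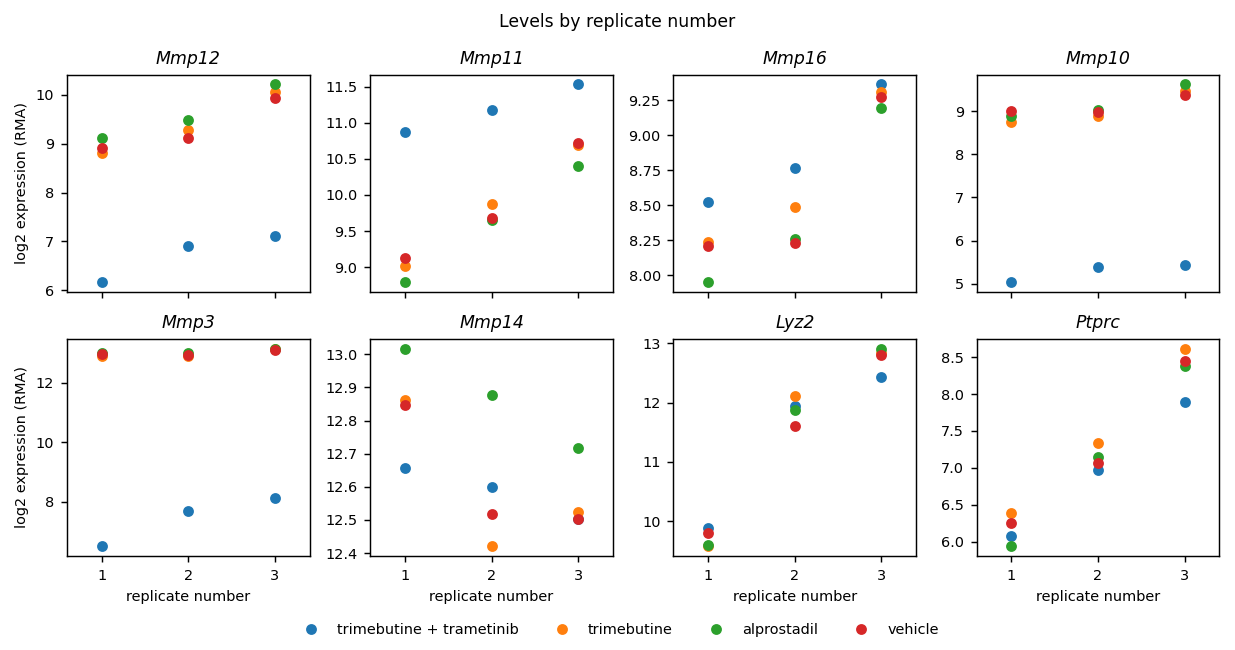
Log2 expression by replicate number, with a panel per gene, a vertical scale of its own for each panel and the 4 groups as colours. Mmp12, Mmp11, Mmp16 and the macrophage genes Lyz2 and Ptprc are highest in replicate 3 and lowest in replicate 1 in all 4 groups, and for Mmp3 the numbers lie apart chiefly with trimebutine and trametinib.

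The genes outside the 9 that were most like each of them were found by the root mean square distance between their mean differences from vehicle in the 3 drug groups. For Mmp10 they were Sgo2, a cohesin protector gene (distance 0.29), the ERK phosphatase gene Dusp6 (0.37) and the chemokine receptor gene Ccr1 (0.39), and for Mmp9 they were Ccr1 (0.32), Dusp6 (0.41) and the ERK phosphatase gene Dusp5 (0.42). No gene outside the 9 was as close to Mmp13 or Mmp3 as they were to each other, at 0.23. These 2 genes ranked 1 and 2 from the lowest difference from vehicle in the group with trametinib, so the lack of a closer gene restates that order. The nearest to both was Sgo2, at 1.39 from Mmp13 and 1.24 from Mmp3, with a difference from vehicle of -3.44 in the group with trametinib. Genes with small differences had closer neighbours, such as Gpd2 for Timp2 (0.005) and Pld1 for Timp3 (0.048). Each distance rests on 3 differences that share the vehicle arrays, and the match says nothing of function or control.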

How the data were processed

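Biotin-labelled cDNA from total RNA was measured on arrays with 1 colour. The authors deposited log2 expression values for each array feature, computed with oligo and RMA as the submitters' processing notes name them, with versions and settings not given in the sources used here. RMA brings arrays to a common distribution, which hides any change in the RNA content of cells. Of 36685 features, 18511 had 1 symbol in the platform annotation, 575 had several and 17599 had none; the last 2 classes were left out. The brightest feature stood for a gene, and genes with a mean under the 25th percentile (log2 5.83) were not tested.

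A limma 3.58.1 model (R 4.3.3) with a mean per group was fitted to all 12 arrays and all 13636 genes, two-sided, with 8 residual degrees of freedom and Benjamini-Hochberg adjustment within each comparison. Groups came from the sample titles. The members and lists were chosen with earlier results of these data known. Every member was named, and of the other lists many but not all of the genes that passed, with some that did not. Deviations from the group mean correlated at 0.21 to 0.81 in all 18 pairs of arrays that share a replicate number and at -0.71 to 0.10 in the 36 other pairs between groups. The numbers were therefore read as pairing the samples, and a replicate block was an alternative (6 residual degrees of freedom). Likeness was measured over group means. Promoters came from RefSeq's GRCr8; array features have no coordinates here, as their build is unnamed. Further alternatives were other filters, feature means, a repeated quantile normalization, a mean-variance trend, a fit of the 2 groups alone and leaving out each array. The steps were tested on simulated data. The number of arrays limits the precision.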

Additional observations from a re-analysis of the deposited data

How the results depend on the processing

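Under all 13 alternatives of each comparison, Mmp13, Mmp3, Mmp10, Mmp9 and Timp1 stayed lower and Mmp2, Timp2 and Timp3 higher with trimebutine and trametinib, and none of the 9 genes passed with alprostadil or trimebutine. The count of genes that passed with alprostadil against vehicle was 53, and it was 257 with the replicate block (same-numbered arrays paired), 29 in a fit of the 2 groups alone, and 30 to 42 when an array was left out. The other comparisons' counts stayed within 1.5 times, and the block changed no call of the 9 genes. Values that did not pass changed sign as follows. With an array left out, Mmp10 with alprostadil ran from -0.15 to 0.214. With trimebutine against vehicle, leaving out an array gave Mmp2 -0.007 to 0.039, Mmp3 -0.096 to 0.03, Mmp9 -0.322 to 0.039, Mmp10 -0.305 to 0.062, Mmp13 -0.085 to 0.079, Mmp14 -0.15 to 0.092, Timp2 -0.019 to 0.002 and Timp3 -0.162 to 0.184, and Timp2 was 0.006 with the quantile normalization repeated. Mmp14 with trimebutine and trametinib ran from -0.107 to 0.114 against trimebutine and from -0.096 to 0.076 against vehicle with an array left out. The cause of these changes was not tested. Low signal limits the levels of Mmp10, Mmp13 and Mmp1 with trametinib, and signal near the top of the scale those of Mmp2, of Timp1 and, without trametinib, of Mmp3.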
